A study of Mus musculus with 9 samples.

Results

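The cytosolic ribosomal proteins were followed through 3 sorted populations of the mouse colon epithelium. They were taken by symbol: every gene named Rpl or Rps with a number and at most 1 closing letter a, x or l, together with Rplp0, Rplp1, Rplp2 and Rpsa. This gave 81 of the 24421 gene symbols in the deposited table, 49 of the large and 32 of the small subunit. Messenger RNA had been sequenced from 9 libraries, 3 for each population, and the comparison asked how the populations differ in transcript levels. The goblet-enriched libraries held cells with Epcam, Cd44 and Kit from the crypt bottom, and the enterocyte-enriched libraries held cells with Epcam and high Cd66a but no Cd44 from the crypt top. The Lgr5-enriched libraries held cells with Epcam and Cd44 but without Kit, also from the crypt bottom. All were labelled as adult female C57BL/6J animals, with no transgene or drug named, so the populations are defined by surface antigens alone and are mixtures. The series text gives 3 mice in all and a separate mouse for each replicate of a population, but the labels do not tie replicate numbers to mice.

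Each ribosome carries a single copy of nearly all of these proteins, the acidic stalk proteins being the known exception, and their genes are transcribed at high and similar rates in growing cells. Their mRNAs begin with a run of pyrimidines, the terminal oligopyrimidine (TOP) motif, through which the growth-sensing kinase mTOR and the binding protein Larp1 control their translation. In the intestine, dividing progenitors near the crypt base make ribosomes in quantity, and cells that mature towards the lumen leave the cell cycle. In bulk libraries such as these, fewer cells of a type and less RNA per cell cannot be told apart.

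The start sites of 5 members that differed between populations, and of Rps27l, are given as examples. By the test used here Rps27l was called in no comparison. It was called under 2 of 19 alternative settings between goblet-enriched and Lgr5-enriched cells, and 4 of 19 between enterocyte-enriched and Lgr5-enriched cells. For each gene, 35 bases before and 20 bases after the annotated start are printed on its strand, from RefSeq on GRCm38.p6. The longest pyrimidine run near the start is in capitals, and where runs were equally long the first is.
Rps6 (chr4:86857348-86857402, minus strand): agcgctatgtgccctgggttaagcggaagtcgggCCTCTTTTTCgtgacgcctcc
Rplp2 (chr7:141447616-141447670, plus strand): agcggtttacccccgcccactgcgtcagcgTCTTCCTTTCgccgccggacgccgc
Rpl38 (chr11:114668545-114668599, plus strand): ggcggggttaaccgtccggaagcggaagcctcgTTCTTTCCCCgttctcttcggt
Rpl27a (chr7:109519160-109519214, plus strand): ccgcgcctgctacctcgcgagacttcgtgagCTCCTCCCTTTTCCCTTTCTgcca
Rpl5 (chr5:107900493-107900547, plus strand): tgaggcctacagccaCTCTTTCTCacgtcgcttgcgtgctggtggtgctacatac
Rps27l (chr9:66946051-66946105, plus strand): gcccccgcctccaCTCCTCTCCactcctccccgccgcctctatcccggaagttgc
In Rps6, Rplp2, Rpl38 and Rpl27a the run spans the annotated start. In Rpl5 and Rps27l it begins 20 and 22 bases before the annotated start and ends before it, so it lies outside the mRNA as annotated.

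A RefSeq promoter entry was found for 60 of the 81 members. A run of at least 8 pyrimidines within 25 bases of the start was present in 53.3% of these, against 22.2% of 26965 other genes and 22.4% of the tested non-members with an entry. The letters CTTCCG, the core bound by ETS factors such as Gabpa, occurred on either strand of the 300-base window in 68.3% of members, against 18.7% of other genes and 34.6% of the tested non-members. The longer form CCGGAAG, which contains that core on the opposite strand, occurred in 41.7% of members, against 9.86% of other genes and 20% of the tested non-members. The YY1 letters AAGATGG occurred in 15% of members, against 7.26% of other genes and 8.44% of the tested non-members. TATAAA occurred in 10% of members, against 15.7% of other genes but 8.91% of the tested non-members. GGGCGG, the Sp1 letters, occurred in 60% of members, against 38.2% of other genes but 67.9% of the tested non-members. The E-box CACGTG, the site of Myc, occurred in 10% of members, against 8.09% of other genes but 11.7% of the tested non-members. These matches describe letters only.

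The libraries held 11.16 to 26.78 M recovered reads in genes (M, times 1000000). Enterocyte-enriched replicate 1 stood apart: it held 0.128 TPM (the deposited unit of transcript abundance, which sums to 1000000 in each library) of Xist, the RNA of the inactive X chromosome, where the other 8 held 110 to 204 TPM, and 139 TPM of Y-linked transcripts, where the others held at most 0.325 TPM. This goes against its female label and sets it apart from replicate 1 of both other populations, and it also had the lowest ribosomal protein level, so results that rest on it are given without it too. Lgr5-enriched replicate 1 held 49046 TPM of the ribosomal RNA precursor Rn45s, against 2356 to 6009 TPM in the others. Summed goblet cell markers stood at 49368 to 68791 TPM in goblet-enriched and 15599 to 23606 TPM in enterocyte-enriched libraries, against 1594 to 1770 TPM in Lgr5-enriched libraries, with all 12 markers detected in every library. Summed enterocyte markers stood at 15851 to 40818 TPM in enterocyte-enriched libraries, against 989 to 1833 TPM in goblet-enriched and 2183 to 2429 TPM in Lgr5-enriched libraries. All 12 stem cell markers were lower in enterocyte-enriched than in Lgr5-enriched libraries by the test used here, whereas between goblet-enriched and Lgr5-enriched libraries 6 were lower and 1 was higher. Leukocyte markers, which the sort should remove, summed to 13.5 to 27.6 TPM in goblet-enriched and 21.5 to 270 TPM in enterocyte-enriched libraries, against 14.9 to 26.6 TPM in Lgr5-enriched libraries, and up to 10 of the 16 were at 0. Enterocyte-enriched replicate 1 held the highest sums of both enterocyte markers (40818 TPM) and leukocyte markers (270 TPM). Replicates 2 and 3 held 15851 and 17954 TPM of the former and 158 and 21.5 TPM of the latter. Stromal and endothelial markers summed to at most 6.28 TPM. The part of either in the results was not tested.

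Ribosomal protein transcripts were scarcest in the enterocyte-enriched cells and most abundant in the Lgr5-enriched cells. Summed over the 81 members, they took 6.14, 7.31 and 7.36% of all TPM in goblet-enriched replicates 1 to 3. In enterocyte-enriched replicates 1 to 3 they took 3.98, 5.99 and 6.54%, and in Lgr5-enriched replicates 1 to 3 they took 9.53, 10.24 and 10.22%. Every goblet-enriched and enterocyte-enriched library lay below every Lgr5-enriched library, whereas the goblet-enriched and enterocyte-enriched ranges overlapped.

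The means were 6.93 ± 0.691% in goblet-enriched, 5.501 ± 1.347% in enterocyte-enriched and 9.999 ± 0.407% in Lgr5-enriched libraries (SD, n = 3 each). The ratio to the Lgr5-enriched mean was 0.694 for goblet-enriched and 0.5502 for enterocyte-enriched libraries, log2 ratios of -0.53 and -0.86, and no test was made on the sum. Without enterocyte-enriched replicate 1 the enterocyte-enriched log2 ratio was -0.675. The log2 ratio of goblet-enriched to enterocyte-enriched means was 0.334, and 0.147 without that library. TPM values share a fixed total, so the level of other abundant transcripts bears on the sum: the 50 most abundant non-members took 17.7% of TPM in goblet-enriched, 17.0% in enterocyte-enriched and 12.2% in Lgr5-enriched libraries. With those 50 genes left out of the total, the log2 ratios to the Lgr5-enriched mean were -0.43 and -0.78. With libraries scaled by the median of ratios over all detected genes in place of the TPM total, they were -0.31 and -0.46. The 12 cell cycle genes summed to 648 to 935 TPM in goblet-enriched, 287 to 533 TPM in enterocyte-enriched and 1432 to 2152 TPM in Lgr5-enriched libraries, in the same order of populations, and their part in the result was not tested.

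**Figure D1:**
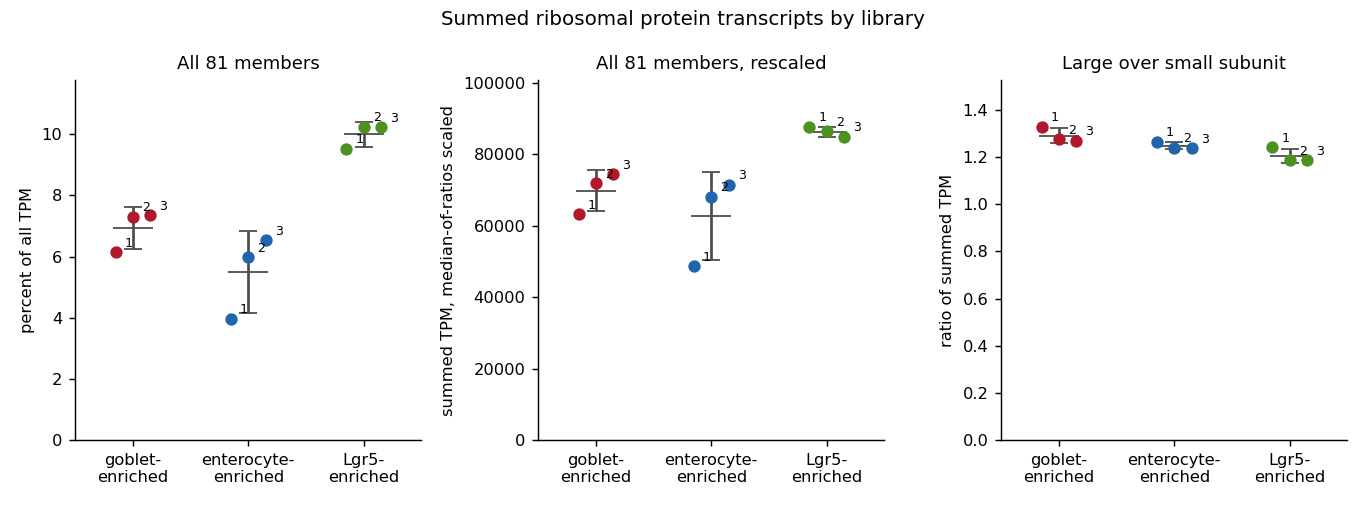
Summed transcripts of the 81 members by library: percent of all TPM (left), the sum after median-of-ratios scaling (middle) and the ratio of large to small subunit transcripts (right). Points are libraries with their replicate number, bars are mean and SD of 3 libraries. The Lgr5-enriched libraries lie above the others in both scalings, and the enterocyte-enriched library at 3.98% is the lowest.

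The subunits moved nearly together. The ratio of large to small subunit TPM averaged 1.29 ± 0.033 in goblet-enriched, 1.25 ± 0.015 in enterocyte-enriched and 1.205 ± 0.031 in Lgr5-enriched libraries. Its range was 1.27 to 1.33 in goblet-enriched libraries and 1.19 to 1.24 in Lgr5-enriched libraries, so these did not overlap. The enterocyte-enriched range of 1.24 to 1.26 lay below the goblet-enriched libraries and overlapped the Lgr5-enriched ones.

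Levels differed far more between members than between populations. Of the 81 members, 26 averaged 1000 TPM or more over the 9 libraries, 47 lay between 100 and 1000 TPM, 1 between 10 and 100 TPM and 4 above 0 but under 10 TPM, and 3 were listed at 0 in every library. The highest were the stalk proteins Rplp1 at 3855 TPM and Rplp0 at 2907 TPM, with the very short Rpl41 between them at 3247 TPM, and the top 10 members held 35.6% of the members' TPM. The rank order of the 77 tested members was nearly the same in all populations: Spearman's rho of the mean levels, across genes that share libraries, was 0.991 for goblet-enriched with Lgr5-enriched, 0.984 for enterocyte-enriched with Lgr5-enriched and 0.985 for goblet-enriched with enterocyte-enriched.

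Some members were at or near 0. Rpl10l and Rpl39l, paralogs known from the male germ line, were listed at 0, but so was Rpl26, a core protein of every ribosome. Rpl30, Rps27 and Rpl34, also core proteins, averaged only 1.36, 3.14 and 3.83 TPM. Of the 100-base windows along their annotated transcripts, 19.1% in Rpl26, 14.5% in Rpl30, 40.1% in Rps27 and 5.8% in Rpl34 also occur in another annotated gene. Over all 81 members, 73 shared at least 1 window and the median share was 22.2%, with a Spearman's rho of -0.13 between the share and the mean level. How the authors' counting treated such reads was not tested, and the values of Rpl30, Rps27 and Rpl34 rest on 1 to 59 reads a library. Rpl3l, a heart and muscle paralog, had at most 3 reads in any library. These 3 members at 0 and Rpl3l were not tested, which left 77 members, 45 large and 32 small, with at least 1 TPM in 3 or more libraries.

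Between goblet-enriched and Lgr5-enriched cells, the members were moderately and evenly lower. Their median log2 fold change was -0.53 over 77 members, 0.693 times the Lgr5-enriched level, where the median of all 12888 genes tested was -0.26. The middle quartiles of the members spanned 0.20 on the log2 scale, against 0.71 for all genes, and 75 of 77 members had a negative value, against 68.7% of all genes. In 68 members every goblet-enriched library lay below every Lgr5-enriched library, which held for 33.9% of all genes tested. The 9 whose libraries overlapped were Rpl10, Rpl11, Rpl27, Rpl30, Rpl38, Rps14, Rps27, Rps27a and Rps27l.

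By limma with Benjamini-Hochberg adjustment over all genes tested, 23 of 77 members were called lower and 0 higher at an adjusted p below 0.05, against 23.6% of all genes called lower and 10.7% called higher. The members' share of 29.9% was near the background. The called members were 9 of 45 in the large and 14 of 32 in the small subunit. With the replicate number as a block, which cannot be read as a pairing by mouse, 48 were called lower and 0 higher, against 35.4% of all genes lower. The count hung on single libraries. It was 3 of 77 (3.9%) without goblet-enriched replicate 1, Lgr5-enriched replicate 2 or Lgr5-enriched replicate 3, where 21%, 16.9% and 12.2% of all genes were called lower. It was 6 without goblet-enriched replicate 2, 7 without goblet-enriched replicate 3 and 10 without Lgr5-enriched replicate 1, where 16.2%, 17.6% and 22.1% of all genes were called lower, so with any of these 6 libraries left out the members' share was below the background. It was 54 without enterocyte-enriched replicate 1, which enters only the shared estimate of the spread, against 25% of all genes. Median-of-ratios scaling moved the median of all genes to -0.05, and the members' median to -0.31, and called 1 member lower, against 12% of all genes. The members' median minus that of all genes was -0.27 on the log2 scale in TPM, -0.25 after that scaling and -0.49 with quantile normalization.

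Rpl22, a large subunit protein that also regulates its own paralog, was the named member whose fall in goblet-enriched cells was called with each library left out in turn and under all 19 alternatives. It had 224, 222 and 211 TPM in goblet-enriched libraries, against 389, 364 and 342 TPM in Lgr5-enriched libraries. The groups were well apart, with a log2 fold change of -0.73 (SE 0.18, limma adjusted p = 0.0131). Rpl36, of the large subunit, had 462, 705 and 696 TPM in goblet-enriched libraries, against 1108, 1054 and 1072 TPM in Lgr5-enriched libraries (log2 fold change -0.82, SE 0.24, limma adjusted p = 0.0257). Rpl34 was also called lower, at -0.84 (limma adjusted p = 0.0321), on 9 to 11 reads a library in goblet-enriched and 16 to 59 reads in Lgr5-enriched libraries. The calls of Rpl36 and Rpl34 were lost, at adjusted p of 0.0505 to 0.0834, without goblet-enriched replicate 1 or Lgr5-enriched replicate 2, and for both without further libraries. Some named members that missed the threshold were called with the replicate block, and also under some other alternatives. Rps19 at -0.84 (limma adjusted p = 0.0612, or 0.00142 with the block), Rpl10a at -0.75 (0.0501, or 0.0035) and Rpsa at -0.68 (0.0509, or 0.0106) were the largest of these among the named members.

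Between enterocyte-enriched and Lgr5-enriched cells, nearly the whole set was lower. The median log2 fold change was -0.96 over 77 members, 0.513 times the Lgr5-enriched level, where the median of all genes was -0.35. In 71 members every enterocyte-enriched library lay below every Lgr5-enriched library, which held for 45.6% of all genes. The 6 that overlapped were Rpl9, Rpl27, Rps4l, Rps14, Rps27 and Rps27a. This comparison shares its Lgr5-enriched libraries with the one before.

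By limma, 70 of 77 members were called lower and 0 higher, 90.9% against 37.6% of all genes called lower and 12% called higher. The 7 not called were Rpl9, Rpl30, Rps4l, Rps14, Rps27, Rps27a and Rps27l. With the replicate block 74 were called lower and 1, Rps4l, higher, against 45.3% and 15.9% of all genes. Without enterocyte-enriched replicate 1, the library that goes against its sex label, 61 were called lower and 0 higher, against 31.5% and 9.36% of all genes, and the members' median was -0.74. Over the libraries left out in turn the count was 55 to 70, against 29.6 to 41.1% of all genes, and without replicate 1 of all 3 populations it was 67 of 76 tested, against 43%. With median-of-ratios scaling 36 were called lower and 1 higher, against 19.7% and 23.5% of all genes, with a members' median of -0.55 and a median of 0.02 over all genes. The members' median minus that of all genes was -0.62 in TPM, -0.58 after that scaling and -1.0003 with quantile normalization. It was -0.44 without enterocyte-enriched replicate 1 and -0.37 without replicate 1 of all 3 populations.

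The largest fall was that of Rpl3, a large subunit protein at the peptidyl transferase centre. It had 217, 450 and 508 TPM in enterocyte-enriched libraries, against 880, 1052 and 1041 TPM in Lgr5-enriched libraries (log2 fold change -1.42, SE 0.29, limma adjusted p = 0.00367). The groups did not overlap, and the lowest enterocyte-enriched library was replicate 1. Rpl12, of the stalk base, had 139, 196 and 289 TPM in enterocyte-enriched libraries, against 462, 573 and 502 TPM in Lgr5-enriched libraries (log2 fold change -1.35, SE 0.25, limma adjusted p = 0.00216). Rps6, the substrate of the S6 kinases downstream of mTOR, had 159, 292 and 334 TPM in enterocyte-enriched libraries, against 589, 597 and 583 TPM in Lgr5-enriched libraries (log2 fold change -1.24, SE 0.24, limma adjusted p = 0.00261). The Lgr5-enriched values of Rps6 lay within a few percent of each other. Rps2 fell by 1.28 (SE 0.22, limma adjusted p = 0.00131) and Rps15a by 1.26 (SE 0.20, limma adjusted p = 0.001) on the log2 scale. All 5 of these calls, and that of Rpl22 at -1.17, held without each library in turn and under median-of-ratios scaling. Of the transcript windows described above, 83.6% in Rps6, 59.9% in Rpl3, 46.8% in Rpl12 and 43.8% in Rps2 also occur in another annotated gene. The share was 2.6% in Rps15a and 0% in Rpl22. How the authors' counting treated such reads was not tested, so the levels of Rps6, Rpl3, Rpl12 and Rps2 are uncertain.

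**Figure D2:**
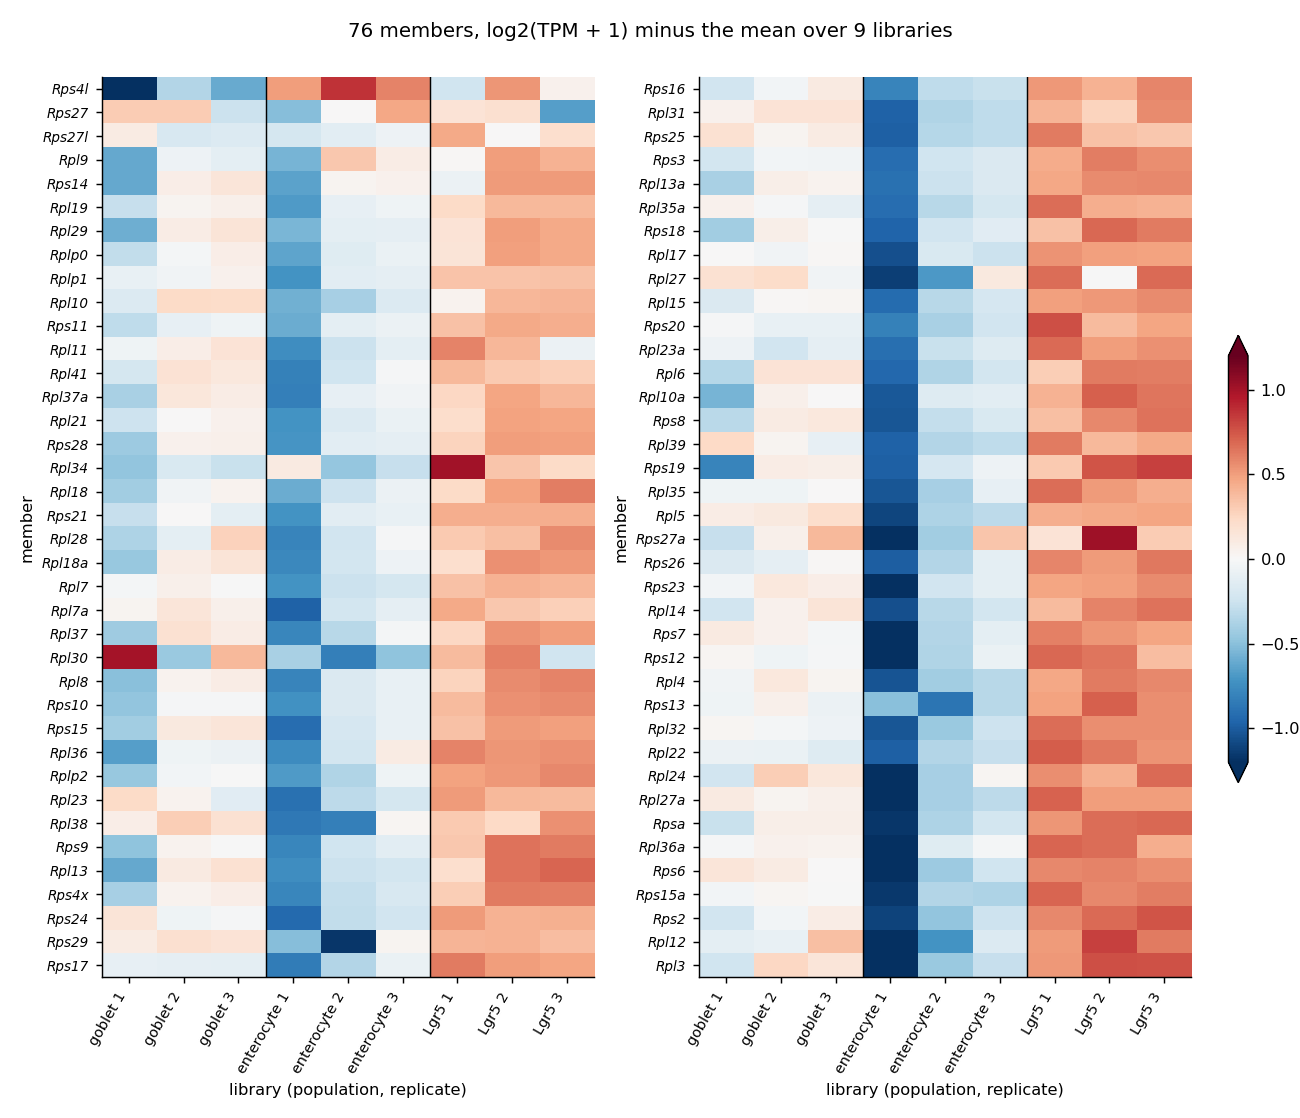
Heat map of 76 of the 77 tested members, ordered by their log2 fold change between enterocyte-enriched and Lgr5-enriched cells. Colour is log2(TPM + 1) minus the member's mean over the 9 libraries, with columns grouped as goblet-enriched, enterocyte-enriched and Lgr5-enriched replicates 1 to 3. The Lgr5-enriched columns are mostly red, enterocyte-enriched replicate 1 is the bluest column, and Rps4l at the top is highest in the enterocyte-enriched columns.

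Between goblet-enriched and enterocyte-enriched cells the median member was higher in goblet-enriched cells, by an amount that moved with 1 library. The median log2 fold change was 0.41, against 0.20 for all genes, but without enterocyte-enriched replicate 1 it was 0.16, against 0.16 for all genes. In 32 members every goblet-enriched library lay above every enterocyte-enriched library, against 36% of all genes, and in 1 it lay below, against 20.4%. By limma, 12 of 77 members were called higher and 1, Rps4l, lower, against 28.2% of all genes called higher and 15.9% called lower, and the members' share called higher was 15.6%. With the replicate block 25 were called higher and 1 lower, against 36.3% of all genes higher and 20.6% lower. The count of higher members was 4 without goblet-enriched replicate 2, 3 without goblet-enriched replicate 3 and 30 without enterocyte-enriched replicate 3, where 21.8%, 23.5% and 26% of all genes were called higher. Without enterocyte-enriched replicate 1 the test called 8 higher and 1 lower, against 22% and 13.2% of all genes. With median-of-ratios scaling it called 2 higher and 1 lower, against 19.8% and 21.3% of all genes.

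Rpl5, which with Rpl11 and ribosomal RNA can bind and restrain the p53 ligase Mdm2, was called higher in goblet-enriched cells with each library left out in turn. It had 307, 312 and 334 TPM in goblet-enriched libraries, against 133, 223 and 232 TPM in enterocyte-enriched libraries (log2 fold change 0.74, SE 0.19, limma adjusted p = 0.0139). The groups did not overlap, and the Lgr5-enriched libraries lay higher than both, at 390, 394 and 400 TPM. Rpl12 at 0.75, Rps6 at 0.74, Rpl38 at 0.74 and Rpl27a at 0.71 were called as well, with limma adjusted p of 0.0254 to 0.0363. Those 4 calls were lost, at adjusted p of 0.0537 to 0.12, without goblet-enriched replicate 2 or 3, and for Rpl12 and Rpl38 also without enterocyte-enriched replicate 1 or 2, for Rpl12 without Lgr5-enriched replicate 3, and for Rps6 and Rpl27a without goblet-enriched replicate 1.

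**Figure D3:**
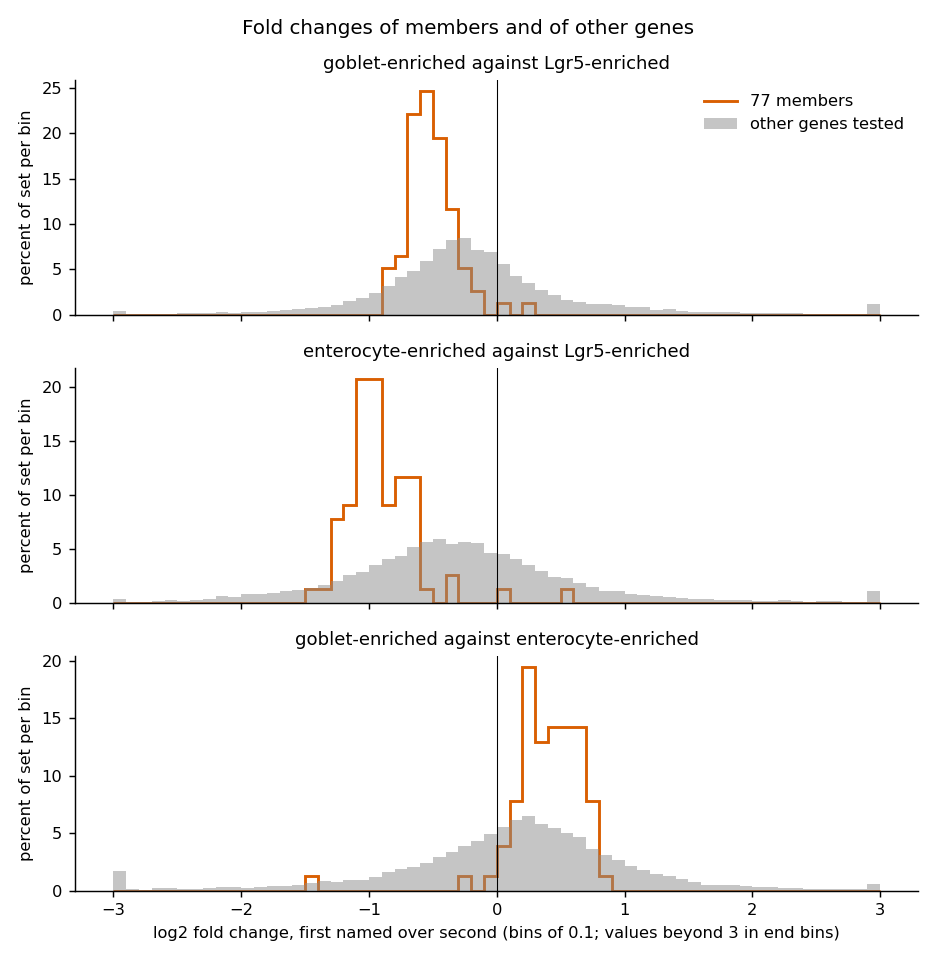
Distribution of the log2 fold changes of the 77 members (line) and of the other genes tested (grey), as the percent of each set per bin of 0.1, for the 3 comparisons. The members form a narrow peak below 0 in the comparisons with Lgr5-enriched cells, with medians of -0.53 and -0.96, and above 0 between goblet-enriched and enterocyte-enriched cells, with a median of 0.41.

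Across all 3 populations the moderated F test of limma called 68 of 77 members, against 63.1% of all genes tested, and 73 with the replicate block, against 75.7%. Without Lgr5-enriched replicate 2 or 3 it called 44 and 43 (57.1% and 55.8% of members), against 57% and 53.6% of all genes, without enterocyte-enriched replicate 1 it called 59, against 55.9% of all genes, and with median-of-ratios scaling it called 23, against 55.3%. In 72 of the 77 members the population means ran in a single order, with Lgr5-enriched highest, goblet-enriched next and enterocyte-enriched lowest. The share of all genes with this order was not counted, so the number is a description only. The step from goblet-enriched to enterocyte-enriched cells moved with 1 library. Without enterocyte-enriched replicate 1 the members' median log2 fold change for that step was 0.157, against 0.165 for all genes. Each library was also centred on the median member, to ask which members departed from the rest. On that scale 0 members differed between goblet-enriched and Lgr5-enriched cells, where 17.4% of all genes were called higher and 3.62% lower. Between enterocyte-enriched and Lgr5-enriched cells Rps4l, Rps27 and Rpl9 were called relatively higher, against 44.2% of all genes higher and 4.97% lower. Rps27 is near the floor, at 5 to 21 reads a library. Its log2 fold change before centring was 0.085 (limma adjusted p = 0.847), so its call rests on the shift of the median member. Between goblet-enriched and enterocyte-enriched cells Rps4l and Rpl9 were called relatively lower, against 21.8% of all genes lower and 8.23% higher. The F test on that scale called 3 members, against 52% of all genes. Centring held the members' median log2 fold changes at 0.02, 0.01 and -0.01 in the 3 comparisons, in the order above. It moved those of all genes to 0.30, 0.63 and -0.22. The low member counts on that scale were thus largely set in advance, and the shares of all genes are no background for them. The smallest spread of population means around the median member was that of Rpl35a, Rpl17 and Rpl6.

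Rps4l was the member whose population means ran in the order enterocyte-enriched, Lgr5-enriched, goblet-enriched. GENCODE annotates it as a transcribed processed pseudogene of a single exon at chr6:148354656-148355598 on the plus strand (GRCm38), a copy of the X-linked small subunit gene Rps4x. It shared 1.7% of its 100-base windows with another gene and was 79.9% identical to the Rps4x reading frame over 783 aligned bases, with no identical run longer than 35 bases. The first 60 coding bases of Rps4x and the matching Rps4l bases, from GENCODE on GRCm38, are printed with the 7 differences in capitals, since reads of this kind decide between the copies.
Rps4x (chromosome X): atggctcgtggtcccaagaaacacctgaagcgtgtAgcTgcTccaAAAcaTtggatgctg
Rps4l (chromosome 6): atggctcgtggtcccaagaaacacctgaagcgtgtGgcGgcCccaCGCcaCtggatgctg

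Rps4l had 16.2, 33.6 and 28.0 TPM in goblet-enriched libraries and 61.2, 79.5 and 65.5 TPM in enterocyte-enriched libraries, against 36.3, 62.5 and 44.7 TPM in Lgr5-enriched libraries. The goblet-enriched libraries lay below all others, whereas the enterocyte-enriched and Lgr5-enriched libraries overlapped at 61.2 and 62.5 TPM. Between goblet-enriched and enterocyte-enriched cells its log2 fold change was -1.42 (SE 0.28, limma adjusted p = 0.00324), and this was called under all 19 alternatives. Between goblet-enriched and Lgr5-enriched cells it was -0.88 (SE 0.28, limma adjusted p = 0.0356), lost at adjusted p of 0.0513 to 0.113 without goblet-enriched replicate 1 or 3, enterocyte-enriched replicate 3 or Lgr5-enriched replicate 2 or 3. Between enterocyte-enriched and Lgr5-enriched cells it was 0.54 (SE 0.28), with a limma adjusted p of 0.133, and of 0.0138 with the replicate block and 0.0157 with median-of-ratios scaling. Rps4x itself had 1302, 1771 and 1820 TPM in goblet-enriched and 1002, 1411 and 1502 TPM in enterocyte-enriched libraries, against 2105, 2646 and 2640 TPM in Lgr5-enriched libraries. It fell by 0.93 on the log2 scale in enterocyte-enriched cells (SE 0.21, limma adjusted p = 0.00592), whereas in goblet-enriched cells its log2 fold change was -0.60, with an adjusted p of 0.0529, or 0.00333 with the replicate block.

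Rpl9, of the large subunit, stood higher in the enterocyte-enriched cells relative to the median member. It had 280, 410 and 395 TPM in goblet-enriched and 289, 534 and 457 TPM in enterocyte-enriched libraries, against 433, 607 and 571 TPM in Lgr5-enriched libraries. The enterocyte-enriched and Lgr5-enriched libraries overlapped, with a log2 fold change of -0.36 (SE 0.25) and a limma adjusted p of 0.258, or 0.0192 with the replicate block. Relative to the median member it stood 0.61 higher on the log2 scale in enterocyte-enriched than in Lgr5-enriched cells (limma adjusted p = 0.0262). Rps27l, the p53-responsive paralog of Rps27, had 449, 368 and 375 TPM in goblet-enriched and 362, 383 and 403 TPM in enterocyte-enriched libraries, against 575, 422 and 482 TPM in Lgr5-enriched libraries. Its enterocyte-enriched libraries all lay below the Lgr5-enriched ones, with a log2 fold change of -0.35 (SE 0.15) and a limma adjusted p of 0.0685, or 0.0371 with the replicate block, and after median-of-ratios scaling its value was 0.06 and that of Rpl9 was 0.05. Rps14 had 1175, 1896 and 1985 TPM in goblet-enriched and 1146, 1831 and 1865 TPM in enterocyte-enriched libraries, against 1709, 2552 and 2558 TPM in Lgr5-enriched libraries. Replicate 1 was lowest in each population for Rps14, and its adjusted p between enterocyte-enriched and Lgr5-enriched cells was 0.167, against 0.00453 with the replicate block (limma).

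**Figure D4:**
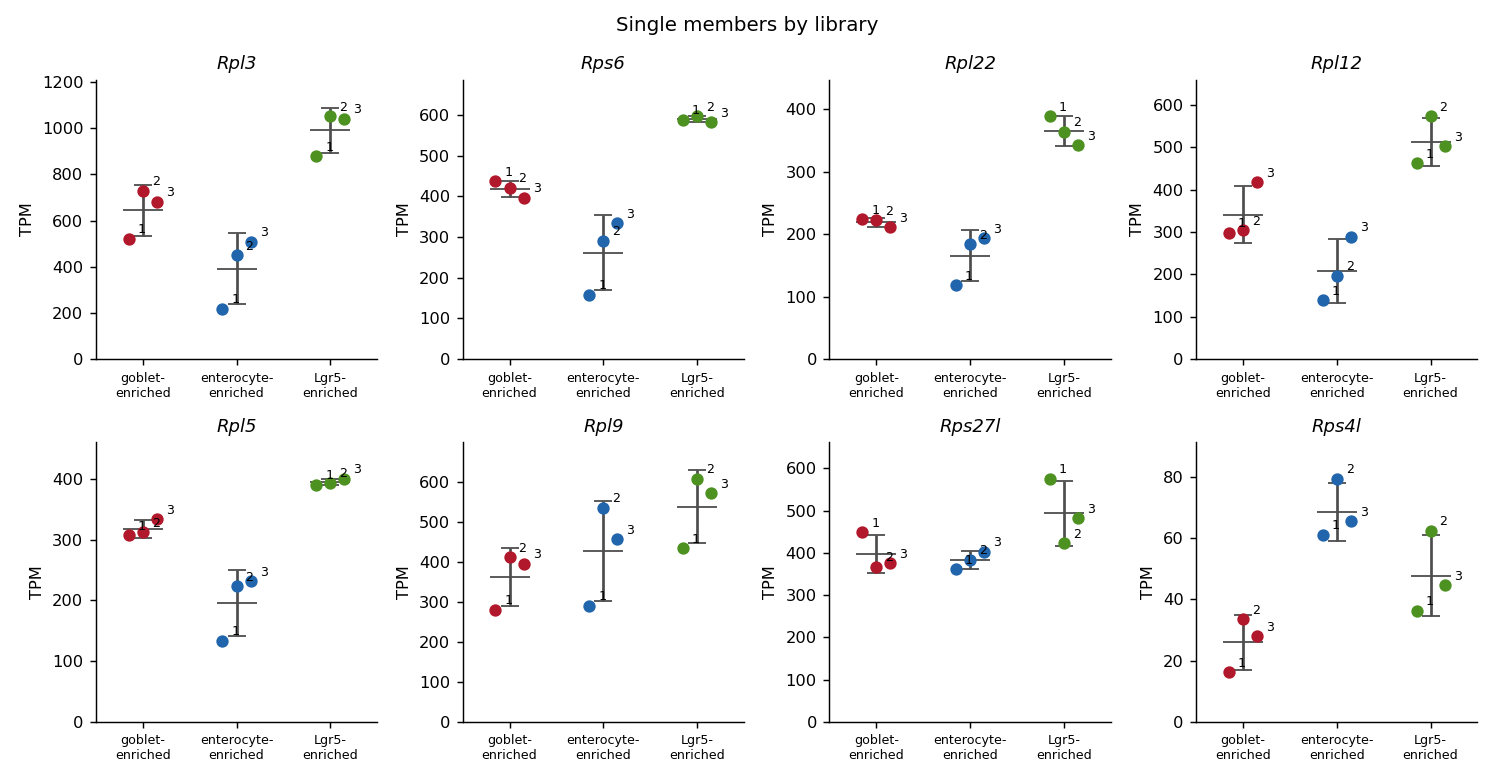
TPM of 8 members by library. Points are libraries with their replicate number, bars are mean and SD of 3 libraries, and each axis starts at 0. Rpl3, Rps6, Rpl22, Rpl12 and Rpl5 are highest in the Lgr5-enriched libraries, Rpl9 and Rps27l separate the populations less, and Rps4l is lowest in the goblet-enriched libraries.

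The list of members with known roles beyond the core held 16 genes, all tested. Between enterocyte-enriched and Lgr5-enriched cells 15 of the 16 were called lower, beside 70 of all 77 members and 37.6% of all genes, with Rps27a, the ubiquitin fusion, the exception at -1.05 (SE 0.43, limma adjusted p = 0.0712, or 0.0222 with the replicate block). With median-of-ratios scaling 8 of the 16 were called, beside 36 of 77 members and 19.7% of all genes. Rpsa, the laminin receptor, had 353, 615 and 679 TPM in enterocyte-enriched libraries, against 1148, 1266 and 1281 TPM in Lgr5-enriched libraries, and it fell by 1.22 on the log2 scale. Rps19, mutated in Diamond-Blackfan anaemia, fell by 1.05 and Rpl10a by 1.02, with Rps3, a DNA repair endonuclease, and Rps25, needed at viral entry sites, each at -0.98. Rpl13a, of the interferon-gated inhibitor complex, was also at -0.98, the stalk protein Rplp2 at -0.89 and Rpl38, needed for Hox mRNA translation, at -0.92. Rpl11 and Rpl41 fell by 0.68 each, Rplp1 by 0.66 and Rplp0 by 0.65. The calls of Rpl11, Rps19 and Rplp0 were lost without enterocyte-enriched replicate 1 and without some Lgr5-enriched libraries, that of Rpl41 without enterocyte-enriched replicate 1 or 2 or any Lgr5-enriched library, and that of Rplp1 without Lgr5-enriched replicate 2 or 3. Between goblet-enriched and Lgr5-enriched cells Rpl22, Rplp2 at -0.69, Rps3 at -0.64 and Rpl13a at -0.63 were called lower, 4 of the 16 against 23.6% of all genes, with 8 of the 16 called lower under the replicate block (35.4% of all genes) and 1 with median-of-ratios scaling (12%), whereas Rpl38 at -0.18 (0.04 with median-of-ratios scaling), Rpl11 at -0.24, Rpl41 at -0.30 and Rpl5 at -0.31 were not.

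Paralog pairs were compared by the share of the second gene in the summed TPM of both. With 3 libraries a group the exact permutation test cannot go below p = 0.1, and after adjustment over 18 tests the lowest value was 0.257, so no difference passed. Rps4l took 1.54 ± 0.32% of the pair with Rps4x in goblet-enriched and 5.09 ± 0.82% in enterocyte-enriched libraries, against 1.89 ± 0.36% in Lgr5-enriched libraries (SD, n = 3 each). The enterocyte-enriched libraries lay above all others, at 4.18 to 5.76%. Rpl22l1, the paralog of Rpl22, took 67.6 ± 3.1% in goblet-enriched and 59.2 ± 0.8% in enterocyte-enriched libraries, against 55.4 ± 4.5% in Lgr5-enriched libraries. The goblet-enriched libraries lay above all others. Rpl22l1 itself had 543, 408 and 435 TPM in goblet-enriched and 166, 266 and 290 TPM in enterocyte-enriched libraries, against 598, 413 and 380 TPM in Lgr5-enriched libraries.

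Rpl36al took 79.0 ± 3.2% of the pair with Rpl36a in goblet-enriched and 76.1 ± 9.3% in enterocyte-enriched libraries, against 68.6 ± 3.4% in Lgr5-enriched libraries. The goblet-enriched and Lgr5-enriched libraries did not overlap, but 83.6% of the windows of Rpl36a are shared with other genes, so this share is uncertain. Rpl7l1 took 3.32 ± 0.35% of the pair with Rpl7 in goblet-enriched, 3.38 ± 0.64% in enterocyte-enriched and 3.39 ± 0.42% in Lgr5-enriched libraries, with all groups overlapping. Rpl3l stood at 0.042 ± 0.007% of the pair with Rpl3 in goblet-enriched libraries, on 2 or 3 reads each, and was listed at 0 in the enterocyte-enriched libraries. The share of Rps27l was about 99% everywhere, which rests on the near-absence of Rps27 counts, and Rps27rt, Rpl10l and Rpl39l were at 0, leaving Rpl10 and Rpl39 alone in their pairs.

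**Figure D5:**
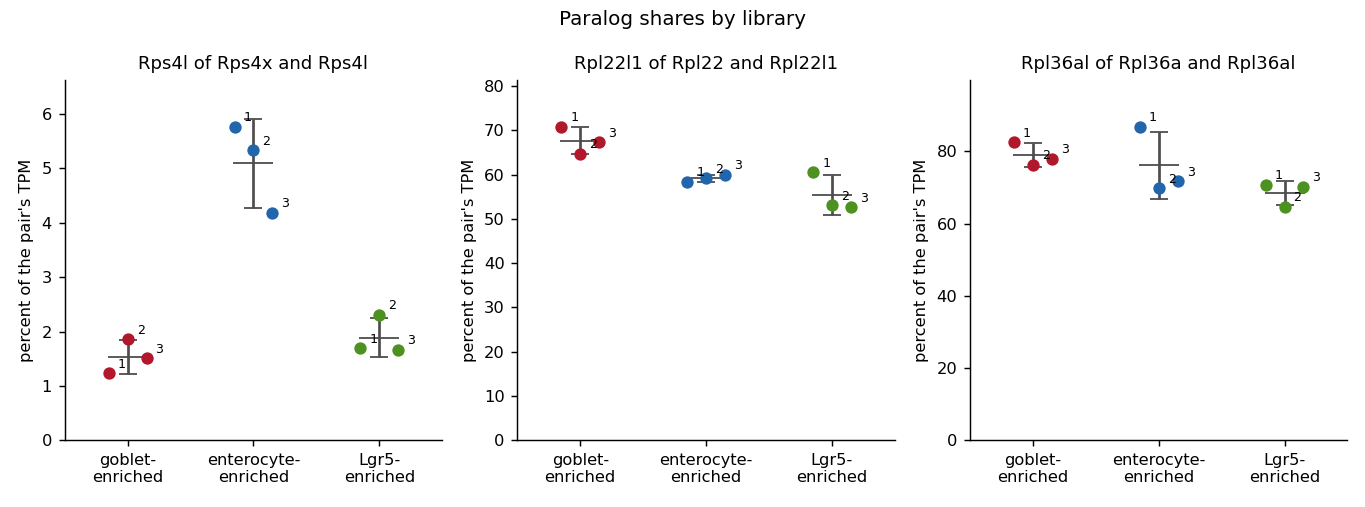
Share of the named paralog in the summed TPM of its pair, by library, for Rps4l, Rpl22l1 and Rpl36al. Points are libraries with their replicate number, bars are mean and SD of 3 libraries. The Rps4l share is 4.18 to 5.76% in enterocyte-enriched libraries and under 2.31% in the others, and the Rpl22l1 share is highest in goblet-enriched libraries.

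Replicate 1 was lower than the other replicates in many members, and in many other genes. In 44 of the 77 tested members replicate 1 lay below the mean of replicates 2 and 3 in all 3 populations, in 1 it lay above in all 3, and in 32 the populations differed. Of all 12888 genes tested, 32.1% lay below in all 3 populations and 16.1% above. The median difference was -0.25 in goblet-enriched, -0.67 in enterocyte-enriched and -0.07 in Lgr5-enriched libraries on the log2 scale, where the medians of all genes were -0.05, -0.10 and -0.12. Rps19 was among the members with the largest such difference, at -0.87 in goblet-enriched, -0.85 in enterocyte-enriched and -0.47 in Lgr5-enriched libraries. Across 74 members the difference was correlated with GC content of the transcript at r = -0.61 in goblet-enriched and -0.43 in Lgr5-enriched libraries, but at 0.13 in enterocyte-enriched libraries, as a description over genes of the same libraries. Whether replicate 1 differs by instrument, animal or preparation was not tested, and the labels used here assign no library to an instrument.

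Other genes of the translation machinery were counted by list. Of 7 tested ribosomal proteins that the symbol rule misses, 0 were called higher and 1 lower between goblet-enriched and Lgr5-enriched cells, 0 higher and 5 lower between enterocyte-enriched and Lgr5-enriched cells, and 3 higher and 0 lower between goblet-enriched and enterocyte-enriched cells. Rps3a1 had 699, 1152 and 1181 TPM in enterocyte-enriched libraries, against 1784, 2058 and 1939 TPM in Lgr5-enriched libraries (log2 fold change -0.97, SE 0.21, limma adjusted p = 0.005). Gnb2l1, the earlier symbol of the scaffold Rack1, was at -0.96. With the replicate block 5, 5 and 5 of the 7 were called in those directions, and with median-of-ratios scaling 0, 1 and 2. Of 6 translation elongation factors, 2 were called lower in goblet-enriched and 5 in enterocyte-enriched than in Lgr5-enriched cells, and 2 were higher in goblet-enriched than in enterocyte-enriched cells, with Eef1g, a subunit of the exchange factor, at -1.12 between enterocyte-enriched and Lgr5-enriched cells. The block gave 5, 6 and 4 of them, and median-of-ratios scaling 0, 3 and 1. Of 12 eIF3 subunits of the initiation machinery, 4, 11 and 6 were called in those directions, 9, 12 and 6 with the block and 0, 5 and 3 with median-of-ratios scaling, with Eif3a at -1.28 between enterocyte-enriched and Lgr5-enriched cells. In those directions the backgrounds are the 23.6%, 37.6% and 28.2% of all genes given above. With the replicate block they are 35.4%, 45.3% and 36.3%, and with median-of-ratios scaling 12%, 19.7% and 19.8%. The same backgrounds apply, in those directions, to the lists that follow.

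Of 10 other TOP transcripts, 6 were called lower in goblet-enriched and 9 in enterocyte-enriched than in Lgr5-enriched cells, and 5 were higher in goblet-enriched than in enterocyte-enriched cells, or 1, 8 and 4 with median-of-ratios scaling. Nap1l1, a histone chaperone, had 35.4, 36.4 and 36.1 TPM in goblet-enriched and 8.94, 11.3 and 17.4 TPM in enterocyte-enriched libraries, against 125, 81.5 and 104 TPM in Lgr5-enriched libraries. Npm1, a nucleolar chaperone of ribosome assembly, was at -0.90 in goblet-enriched and -1.93 in enterocyte-enriched against Lgr5-enriched cells. Of 8 dedicated chaperones of ribosomal proteins, 3 and 6 were called lower in those comparisons, or 1 and 6 with median-of-ratios scaling. Among them Grwd1, the escort of Rpl3, was at -1.19 and -1.77. Between goblet-enriched and enterocyte-enriched cells 5 of the 8 were called higher, or 3 with median-of-ratios scaling.

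Of 15 regulators of ribosomal protein synthesis, 4 were called lower in goblet-enriched than in Lgr5-enriched cells, and 9 lower and 1 higher in enterocyte-enriched than in Lgr5-enriched cells. Between goblet-enriched and enterocyte-enriched cells 6 were higher and 1 lower. The first count is near the 23.6% of all genes called lower, and the others stand beside 37.6% lower and 28.2% higher. With median-of-ratios scaling 1 was lower and 1 higher, 4 lower and 2 higher, and 3 higher and 1 lower in the comparisons in that order. Myc, which drives ribosome synthesis, had 14.3, 27.8 and 23.7 TPM in enterocyte-enriched libraries, against 108, 72.7 and 92.3 TPM in Lgr5-enriched libraries (log2 fold change -2.03, SE 0.26, limma adjusted p = 0.000434). Larp1, which binds TOP mRNAs, was at -0.54 in goblet-enriched and -1.11 in enterocyte-enriched against Lgr5-enriched cells. Eif4ebp3, a repressor of the cap-binding factor, ran the other way, with 301, 275 and 295 TPM in enterocyte-enriched libraries, against 66.2, 108 and 112 TPM in Lgr5-enriched libraries (log2 fold change 1.63, SE 0.24, limma adjusted p = 0.000722). In goblet-enriched libraries it had 40.1, 51.0 and 69.9 TPM, and its enterocyte-enriched libraries lay far above both others. Its relative Eif4ebp1 went in the opposite direction between goblet-enriched and enterocyte-enriched cells. There Eif4ebp1 was at 1.31 (SE 0.19, limma adjusted p = 0.000753) and Eif4ebp3 at -2.45, so the family did not move as 1.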

How the data were processed

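RNA from sorted cells was sequenced after poly-A selection with a stranded kit, per the labels' protocols. The deposited table holds log2 values, 1 for each symbol and library, with 0 per-sample columns unused. Judged from the values, the authors deposited log2(TPM) from 1 TPM upwards and TPM - 1 under it, since the columns, turned back to TPM, each sum to 1000000. Cufflinks and mm10 are named in the submitters' processing notes, without versions. No aligner, annotation or strand setting is known, so overlapping genes and near-identical copies are uncertain. Reads were recovered as the smallest whole numbers the values allow, for 18386 of 18396 genes (99.946%, tolerance 0.0001 read), and are lower bounds.

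Log2(TPM + 1), which understates changes of low genes, was tested two-sided with limma 3.58.1 in R 4.3.3 (mean-variance trend, 9 libraries, 1 mean per population). The fit kept the 12888 genes that reached 1 TPM in 3 or more libraries and had 6 residual and 3.21 prior degrees of freedom. A gene was called when its p, adjusted by Benjamini and Hochberg over these genes in each comparison, was below 0.05. The script was tested on simulated data. The design had allowed for TPM or FPKM, and the values proved to be TPM. Shares were permuted in Python 3.11.15 with scipy 1.17.1. Same-numbered libraries of different populations deviated together in all 9 pairs (r = 0.194 to 0.601 across genes), so the replicate number, which the labels give, was also fitted as a block. Enterocyte-enriched replicate 1 differed in Xist and Y-linked transcripts from replicate 1 of both other populations, so the block cannot be read as a pairing by mouse. p-values measure the spread between these libraries.

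The members, lists, tests and alternatives were chosen with earlier results of these data known. Named members were those with the 5 largest called changes in each direction and comparison, the 3 highest, the paralog pairs, those with roles beyond the core, and the 3 with the largest and the smallest spread around the median member. Rps14, the members at or near 0 and those listed as overlapping or not called were named after their values were seen. For 1 member the single values are not reported here, though it stays in the counts and sums. Other lists were given as counts with a few examples.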

Additional observations from a re-analysis of the deposited data

How the results depend on the processing

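Of 2046 fold changes of the named members under alternatives, 1706 kept direction and side of the threshold, 175 lost a call, 137 gained one and 28 changed sign, none of these called either way. Lower members between goblet-enriched and Lgr5-enriched cells (23) numbered 6 with no filter, 1 with median-of-ratios scaling, 2 with scaling to the geometric mean of non-members, 44 with only the 6 libraries compared, 63 with array weights, 48 with the replicate block and 3 to 54 with 1 library left out (62 without replicate 1 of all 3 populations). Between enterocyte-enriched and Lgr5-enriched cells 1 was higher with median-of-ratios, quantile, geometric-mean, array-weight and block settings, and 36 were lower with median-of-ratios scaling, 55 to 70 with libraries left out. Higher members between goblet-enriched and enterocyte-enriched cells (12) numbered 2 with median-of-ratios scaling, 24 with quantile normalization, 6 with only the 6 libraries, 23 with array weights, 25 with the replicate block, and 3 to 30 with 1 library left out (28 without replicate 1 of all 3). The F test (68) called 23 with median-of-ratios and 44 with geometric-mean scaling, and 43 to 70 with libraries left out. The summed log2 ratios to Lgr5-enriched libraries became -0.31 for goblet-enriched and -0.46 for enterocyte-enriched cells with median-of-ratios scaling, and spanned -0.57 to -0.45 and -1.005 to -0.675 with libraries left out, with 0.15 to 0.48 for goblet-enriched against enterocyte-enriched cells. The replicate block gained 20 calls among the 108 named fold changes and lost 0. Without each library in turn, 24 of 31 named calls between enterocyte-enriched and Lgr5-enriched cells, 1 of 10 between goblet-enriched and Lgr5-enriched cells and 2 of 9 between goblet-enriched and enterocyte-enriched cells were kept every time.

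The sign changed as follows. With median-of-ratios scaling the log2 fold change was 0.042 for Rpl38 and 0.032 for Rpl10 between goblet-enriched and Lgr5-enriched cells, 0.058 for Rps27l and 0.051 for Rpl9 between enterocyte-enriched and Lgr5-enriched cells, and -0.16 for Rpl36, -0.14 for Rps27l and -0.0064 for Rps27 between goblet-enriched and enterocyte-enriched cells. Geometric-mean scaling gave -0.078 for Rpl36 and -0.061 for Rps27l, quantile normalization -0.085 for Rps27, and array weights 0.087 for Rpl34, -0.0365 for Rps27 and -0.057 for Rps27l in that last comparison, with 0.052 for Rpl11 between goblet-enriched and Lgr5-enriched cells. Without replicate 1 of all 3 populations Rpl34 was at 0.15, Rps27 at -0.21 and Rps27l at -0.082 there. With 1 library left out, the goblet-enriched to enterocyte-enriched values spanned -0.22 to 0.062 for Rpl34, -0.20 to 0.23 for Rpl36, -0.12 to 0.37 for Rps27, -0.042 to 0.10 for Rps27l, -0.023 to 0.47 for Rpl10a and -0.079 to 0.49 for Rps19. Those of Rps27 against Lgr5-enriched cells spanned -0.061 to 0.41 for goblet-enriched and -0.19 to 0.34 for enterocyte-enriched cells. Differences in paralog share, in percentage points, spanned -0.215 to 0.0943 for Rps27l and -0.29 to 8.18 for Rpl36al between goblet-enriched and enterocyte-enriched cells. For Rpl7l1 they spanned -0.27 to 0.173 (goblet-enriched against Lgr5-enriched), -0.362 to 0.251 (enterocyte-enriched against Lgr5-enriched) and -0.321 to 0.292 (goblet-enriched against enterocyte-enriched). Centring on the median member measures another quantity, and 44 of the 108 named fold changes had the other sign there. The table held 0 mitochondrial genes, so leaving those out removed Rn45s alone. Rpl30, Rps27 and Rpl34, at 1 to 59 reads a library, are limited by depth. The cause of these moves was not tested.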
